A study of Capra hircus with 21 samples.

Results

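The 2-cell goat embryo was compared with the oocyte it arises from, gene by gene, in bulk RNA sequencing of Capra hircus. The comparison takes in 6 of the 21 libraries of the series and all 19040 genes of its table, 17446 of which are annotated as protein coding. The 2-cell group holds 3 libraries (A, B and C) from embryos that had developed in the animal to the stage of 2 cells. The oocyte group holds 3 libraries (A, B and C) from oocytes that had matured in the animal. The other 15 libraries, from 5 later stages up to the blastocyst, enter here only through the estimate of the spread and in stage courses. No genotype, breed, age, number of oocytes or embryos per library or library kit is given in the labels used here. The labels do not say that A, B and C came from separate animals, so the p-values measure the spread between these libraries, which may be technical. Each library is a bulk sample, in which fewer cells of a type and less RNA per cell cannot be told apart, and every value is relative to the other RNA of its library.

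A fully grown mammalian oocyte has stopped transcribing and carries stored maternal mRNA. After fertilisation the early cleavage divisions run on this store: messages are adenylated and translated, stripped of their tails or degraded, on a schedule set by RNA-binding proteins. The embryo's own genome becomes active in stages, and in ruminants the main wave comes several cleavages after the 2-cell stage. The oocyte to 2-cell interval is therefore usually read as a record of the maternal store.

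The deposited values are RPKM (reads per kilobase per 1 M reads), where the kilobases are the whole span of the gene from start to stop and 0.01 has been added to each value. Long genes with introns therefore have small RPKM, and RPKM levels of different genes are not comparable as transcript levels. The same data were also expressed as reads per 1 M gene reads (RPM), after removing the 0.01 and multiplying by the span. Differences below are 2-cell minus oocyte on log2(value + 1), from limma fitted to all 21 libraries, with Benjamini-Hochberg adjusted p. A gene is called at an adjusted p below 0.05 and an absolute log2 difference of at least 1, and the log2(value + 1) scale understates the change of genes with low values.

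Reads in genes numbered 24.2, 23.4 and 26.7 M in 2-cell libraries A, B and C, against 18.8, 16.6 and 19.6 M in oocyte libraries A, B and C. Genes held 38.3 to 41.1% of the implied total reads in 2-cell libraries and 35.3 to 36.3% in oocyte libraries. Pearson's r between libraries, on log2(RPKM + 1) over the genes tested, was 0.966 to 0.969 within the 2-cell stage, 0.956 to 0.986 within oocytes and 0.922 to 0.954 between the stages. Oocyte C stood apart from its 2 stage mates in several measures. Calls of named genes that were lost without it, on the scale for which they are given, are marked as such. Oocyte transcripts were plentiful in both stages. The 7 oocyte markers found, among them GDF9, ZP2 and MOS, summed to 5840, 6172 and 8591 RPM in 2-cell libraries and 4269, 3779 and 5532 RPM in oocyte libraries. The 10 cumulus and granulosa genes found summed to 73.7, 118 and 108 RPM in 2-cell libraries and 115, 96.7 and 162 RPM in oocyte libraries, mostly from STAR, and AMH and INHA had no read in any of the 6. GJA1, a gap junction protein of cumulus cells, was called higher on both scales (5.9 ± 0.692 RPM in 2-cell and 1.44 ± 0.446 RPM in oocyte libraries, SD, n = 3 each), but both calls were lost with the median ratio, the RPM call without any one library, and the RPKM call without oocyte A, oocyte C or 2-cell C (adjusted p up to 0.0621). The 5 oviduct markers found summed to 27 to 46.6 RPM in 2-cell and 15.6 to 31 RPM in oocyte libraries, with PAX8 at 0. The 6 leukocyte markers found summed to at most 1.80 RPM and the erythrocyte gene ALAS2 to at most 0.513 RPM in any of the 6. The 4 sperm markers found summed to 8.38 to 9.23 RPM in 2-cell libraries and 1.99 to 2.66 RPM in oocyte libraries. ODF2, a protein of the sperm tail and of centrosomes, made up most of that sum and was called higher on RPM (5.94 ± 0.485 RPM in 2-cell and 1.42 ± 0.434 RPM in oocyte libraries, SD, n = 3 each; adjusted p = 0.0296), a call lost when any one of the 6 libraries was left out. The part of these markers in the results was not tested.

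The 2-cell libraries spread their reads over more genes. Genes at 1 RPKM or more numbered 2977, 2905 and 2899 in 2-cell libraries A, B and C, against 2491, 2516 and 2197 in oocyte libraries A, B and C. Genes at 1 RPM or more numbered 10106, 10421 and 10306 in 2-cell libraries, against 9217, 9097 and 8333 in oocyte libraries. Every 2-cell library lay above every oocyte library in both counts, and the same held after all 6 libraries were thinned to 16.6 M reads (10154, 10449 and 10304 genes in 2-cell libraries, 9190, 9098 and 8359 in oocyte libraries). The 100 most abundant genes took 33.9, 33.9 and 33.7% of gene reads in 2-cell libraries, against 41.1, 38.7 and 48.3% in oocyte libraries. For each of these 3 measures the exact two-sided permutation test gave p = 0.1 (0.14 after adjustment over 7 library measures), which is the smallest value that 3 libraries against 3 allow. The 13 protein genes of the mitochondrial genome held 1.32, 2.46 and 1.67% of gene reads in 2-cell libraries, against 0.843, 0.657 and 3.36% in oocyte libraries. Here the groups overlapped, because oocyte C lay above all the others and oocytes A and B below them (exact p = 0.9). Long intergenic RNAs held 0.658 ± 0.0282% of gene reads in 2-cell and 0.65 ± 0.0799% in oocyte libraries (SD, n = 3 each; exact p = 1).

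**Figure D1:**
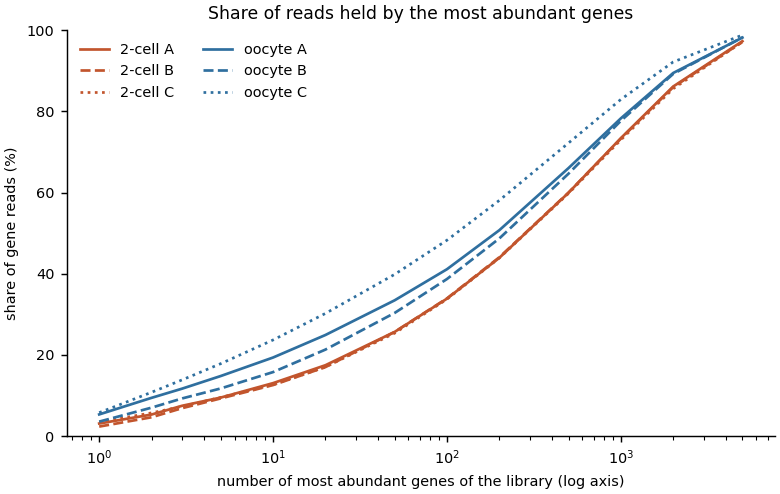
Share of gene reads (vertical axis, %) held by the most abundant genes of each library (horizontal axis, number of genes, log axis) in 3 2-cell libraries (orange) and 3 oocyte libraries (blue). At 100 genes the 2-cell curves lie together at 33.7 to 33.9%, and the oocyte curves lie higher and apart at 38.7 to 48.3%, with oocyte C on top.

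Several of the most abundant messages held a smaller share of the 2-cell than of the oocyte libraries, although none of those named here was called. They were chosen after their values were seen. A share of reads grows with transcript length, so the order of these genes is an order of reads, not of molecules. ENSCHIG00000014788, a protein-coding gene to which the table gives no symbol, held 2.22, 2.25 and 1.57% of gene reads in 2-cell libraries and 4.08, 3.57 and 5.02% in oocyte libraries. These ranges do not overlap, but its log2 difference of -1.07 had an adjusted p of 0.425. BTG4, the adaptor that brings the CCR4-NOT deadenylase to maternal messages, held 0.914, 1.42 and 0.94% in 2-cell libraries and 1.94, 1.31 and 3.06% in oocyte libraries. Its groups overlapped through 2-cell B and oocyte B, and its adjusted p was 0.522. PAIP1, which helps poly(A)-binding protein promote translation, held 2.26 ± 0.0965% in 2-cell and 2.29 ± 0.0408% in oocyte libraries (SD, n = 3 each). CETN3, a centrin of the centrosome, held 0.378, 0.384 and 0.271% in 2-cell libraries and 1.04, 1.16 and 1.18% in oocyte libraries. The difference of CETN3, -1.72 on the log2 scale, stopped just short of the threshold (adjusted p = 0.0569). PCNA, the sliding clamp of DNA polymerase, held 0.436, 0.45 and 0.457% in 2-cell libraries and 0.759, 0.606 and 1.5% in oocyte libraries, with no overlap and an adjusted p of 0.31. Of the 100 genes most abundant in oocytes, 7 lay higher in all 2-cell libraries than in all oocyte libraries and 31 lay lower in all of them. These 100 genes together took 32.9, 32.6 and 32.1% of gene reads in 2-cell libraries and 40.9, 38.2 and 47.7% in oocyte libraries, and 2 of them were called lower and 0 higher. They were chosen by their oocyte level, so these counts are a description.

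Over all genes, calls went mostly upward at the 2-cell stage. On RPKM, 186 of the 4253 genes tested were called higher (4.37%) and 17 lower (0.4%). On RPM, 1162 of the 12763 genes tested were called higher (9.1%) and 52 lower (0.407%), and 880 of the 1162 were too low in RPKM to be tested there. The 2 scales shared 124 genes called higher and 12 called lower, and no gene was called in opposite directions. The whole distribution was shifted as well: the median gene differed by 0.19 on RPKM and by 0.41 on RPM on the log2 scale, and 73.5% of the genes tested on RPM had a positive difference. Libraries of the 2 stages did not overlap, with the 2-cell libraries higher, for 37.1% of genes on RPKM and 38.3% on RPM. They did not overlap with the 2-cell libraries lower for 6.82% on RPKM and 5.66% on RPM.

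The split between higher and lower calls depended on how libraries were scaled to each other. Scaling by the median ratio of genes, which brings the median gene of the RPM comparison to 0.02, gave 204 genes higher and 233 lower on RPM and 62 higher and 100 lower on RPKM. Quantile normalization gave 143 higher and 138 lower on RPM and 112 higher and 83 lower on RPKM. The 204 were all among the 1162, and all 52 genes called lower on RPM and all 17 on RPKM were called lower with the median ratio too. Oocyte C weighed on the count: without it, 166 genes were higher and 13 lower on RPM, and 93 were higher and 16 lower on RPKM. Without 2-cell C, 308 were higher and 8 lower on RPM and 117 higher and 4 lower on RPKM. Without 2-cell A or B, 729 and 485 were higher and 34 and 18 lower on RPM. Without oocyte A or B, 682 and 719 were higher and 15 and 16 lower on RPM, and 5 and 6 were lower on RPKM. Calls that held without each of the 6 libraries in turn numbered 155 higher and 5 lower on RPM and 79 higher and 2 lower on RPKM.

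**Figure D2:**
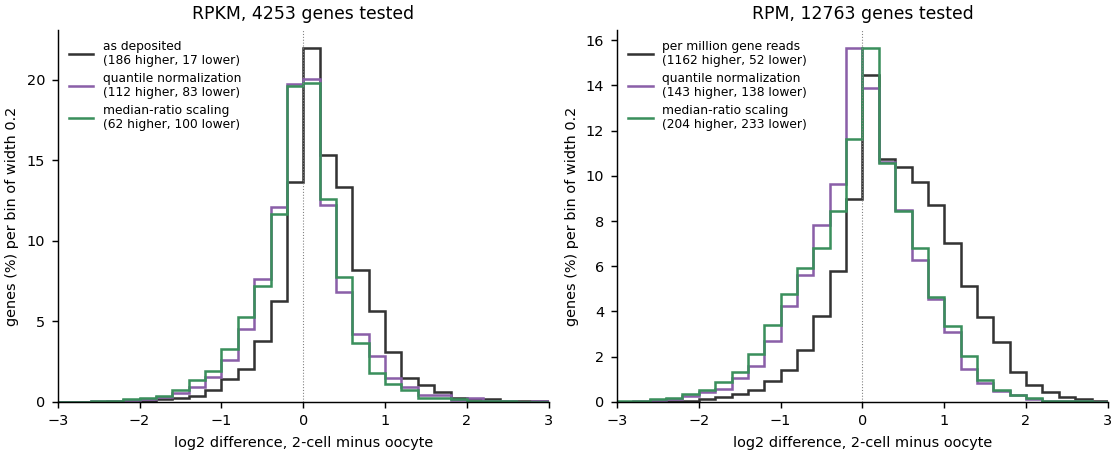
Distribution of log2 differences, 2-cell minus oocyte (horizontal axis), as the percent of tested genes in bins of 0.2 (vertical axis), on RPKM (left, 4253 genes) and RPM (right, 12763 genes). The dark lines, without rescaling, are shifted to the right of 0, with medians of 0.19 and 0.41; median-ratio (green) and quantile scaling (purple) centre them, and the legends give the calls under each.

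Genes were called the same way under 4 scalings (RPKM, RPM, and RPKM after median-ratio scaling and after quantile normalization) in 59 cases for higher (1.39% of the 4244 genes tested under all) and 12 for lower (0.283%). Of these, 43 of the higher and 3 of the lower carry a symbol. Several of the largest rises follow.

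POLR2G, on chromosome 29 from 41410013 to 41412856, encodes a subunit of RNA polymerase II that, with a partner, forms the stalk of the enzyme. It measured 14.8, 13.6 and 15 RPKM in 2-cell libraries A, B and C, against 1.66, 1.57 and 1.09 RPKM in oocyte libraries A, B and C. The groups lay far apart with little spread, and the log2 difference was 2.67 (SE 0.60, adjusted p = 0.00729). MRPL17, on chromosome 15 from 35957432 to 35958752, encodes a protein of the large mitochondrial ribosomal subunit. It measured 10.6, 21.2 and 16.6 RPKM in 2-cell libraries, against 2.54, 1.96 and 1.61 RPKM in oocyte libraries. All 2-cell values were above all oocyte values, and the difference was 2.46 (SE 0.40, adjusted p = 0.000688). PIGC, on chromosome 16 from 38425629 to 38426523, encodes a subunit of the enzyme that starts the synthesis of GPI anchors. It measured 8.8, 9.02 and 9.29 RPKM in 2-cell libraries, against 1.05, 0.821 and 0.982 RPKM in oocyte libraries. It varied little within either stage (2.37, SE 0.41, adjusted p = 0.00116). The calls of POLR2G, MRPL17 and PIGC held without each of the 6 libraries and under median-ratio and quantile scaling.

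TENT5C, on chromosome 3 from 94962769 to 94963945, encodes a noncanonical poly(A) polymerase, an enzyme that lengthens the tails of cytoplasmic mRNA. It measured 8.68, 10.8 and 12.8 RPKM in 2-cell libraries, against 2.07, 1.3 and 0.607 RPKM in oocyte libraries. The groups did not overlap and the difference was 2.37 (SE 0.36, adjusted p = 0.000445), kept on RPKM without any one library. On RPM the TENT5C call was lost without oocyte C (adjusted p = 0.0665). TUBA1B, on chromosome 5 from 30341517 to 30347411, encodes an alpha-tubulin. It measured 18.8, 35.4 and 49 RPKM in 2-cell libraries, against 6.3, 6.55 and 5.64 RPKM in oocyte libraries. The 2-cell libraries differed among themselves by more than the oocyte libraries did, and all lay higher (2.21, SE 0.38, adjusted p = 0.00104). Alpha-tubulin genes are near-identical copies, so reads may have been split among them. SLC35B1, a nucleotide sugar transporter family member of the endoplasmic reticulum, measured 6.6, 11.7 and 7.59 RPKM in 2-cell libraries and 1.2, 1.53 and 0.881 RPKM in oocyte libraries. TMEM31, a transmembrane protein gene on a scaffold, measured 2.67, 9.21 and 6.34 RPKM in 2-cell libraries and 0.638, 0.267 and 0.121 RPKM in oocyte libraries. Neither pair of groups overlapped, and the differences were 2.10 for SLC35B1 (adjusted p = 0.00114) and 2.29 for TMEM31 (adjusted p = 0.00155).

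ZSWIM1, a SWIM-type zinc finger gene, had the smallest adjusted p of the 12 rises named first (6.13e-05). It measured 4.04, 6.12 and 7.94 RPKM in 2-cell libraries against 0.814, 0.94 and 0.226 RPKM in oocyte libraries, a difference of 2.07 (SE 0.24). TMEM69, the most highly covered of these genes, measured 65.3, 113 and 63.4 RPKM in 2-cell libraries against 24.9, 11.4 and 18.3 RPKM in oocyte libraries, a difference of 2.10 (adjusted p = 0.0083). On RPM the TMEM69 call was lost without oocyte B, oocyte C or 2-cell B (adjusted p up to 0.0839). NAA11, a paralog of the catalytic subunit of the N-terminal acetyltransferase complex NatA, measured 12.9, 13.8 and 12.1 RPKM in 2-cell libraries against 3.06, 1.25 and 1.4 RPKM in oocyte libraries. Its difference of 2.31 had an adjusted p of 0.0237 and was not called with the median ratio, nor without oocyte B, oocyte C or any one 2-cell library (adjusted p up to 0.093).

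**Figure D3:**
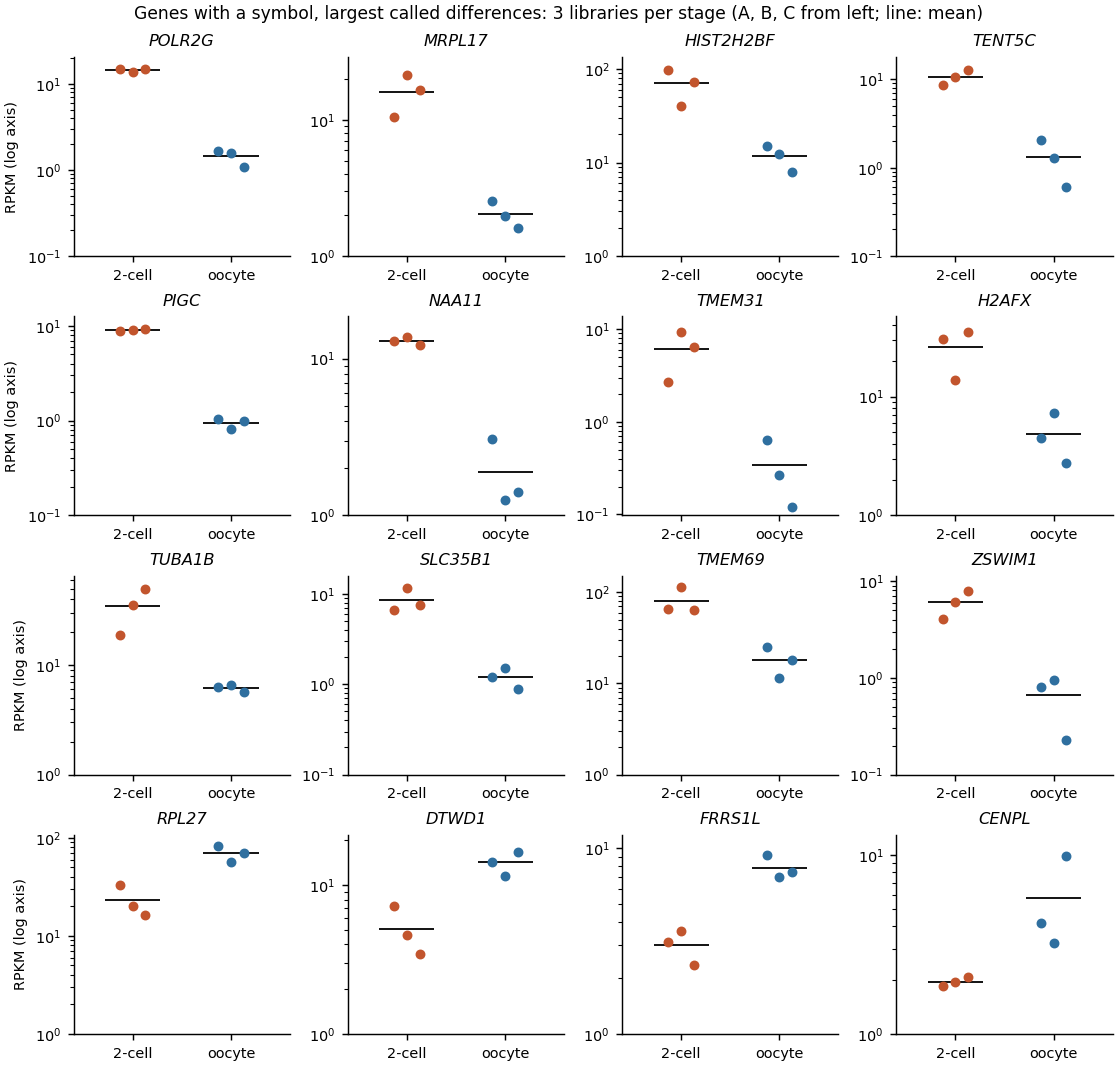
RPKM (vertical axis, log axis) of the 12 genes with the largest called rises and the 4 with the largest called falls that carry a symbol, do not overlap and average at least 5 RPKM, one point per library (2-cell left in orange, oocyte right in blue) with the mean as a line. In each of the 12 upper panels the 3 2-cell points lie above the 3 oocyte points, by least in TMEM69 and H2AFX, and in the bottom row (RPL27, DTWD1, FRRS1L, CENPL) they lie below.

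Histone genes package DNA, and core histones are made for each S phase. Of the 26 genes found from a list of core and variant histones, 23 were tested, 6 were called higher and 0 lower, beside 4.37% of all genes, and their median difference was 0.95 beside 0.19 for all genes. With the median ratio 3 were called and the median was 0.55, and without one library 2 to 7 were called, 2 of them without oocyte C, 2-cell A or 2-cell C. On RPM 5 of 24 were called higher beside 9.1% of all genes, 0 with the median ratio and 0 without oocyte C, 2-cell A or 2-cell C. H2AFX, the H2A variant phosphorylated at DNA breaks, measured 30.3, 13.8 and 34.8 RPKM in 2-cell libraries and 4.44, 7.21 and 2.75 RPKM in oocyte libraries. All 2-cell values were higher, with 2-cell B nearest to the oocytes (2.21, SE 0.48, adjusted p = 0.0059). HIST2H2BF, a core H2B gene, measured 98.6, 39.8 and 72.6 RPKM in 2-cell libraries and 15.1, 12.4 and 8.02 RPKM in oocyte libraries. Its difference of 2.42 (SE 0.73, adjusted p = 0.0361) was not called with the median ratio, and it was called without 2-cell B and not without any other library (adjusted p up to 0.146). The other 4, named here after their values were seen, were HIST1H2BA, HIST1H1D, HIST1H1E and HIST2H2AB. The RPKM call of HIST1H1E was lost without oocyte C, 2-cell A or 2-cell C (adjusted p up to 0.119). That of HIST2H2AB held without 2-cell B only (adjusted p up to 0.173), and neither was called with the median ratio. HIST1H2BA, an H2B known from testis in mouse, measured 117, 51.6 and 60.4 RPKM in 2-cell libraries and 21.5, 19.4 and 12 RPKM in oocyte libraries (2.00, adjusted p = 0.0136, lost without oocyte C or 2-cell A, up to 0.0776). The linker histone HIST1H1D measured 23.5, 27.1 and 33.3 RPKM in 2-cell libraries and 7.33, 6.28 and 8.39 RPKM in oocyte libraries (1.79, adjusted p = 0.0127, and 0.0615 without 2-cell C). H1FOO, the linker histone particular to oocytes, was not called: it measured 16.2, 9.99 and 22.3 RPKM in 2-cell libraries and 9.41, 8.58 and 5.18 RPKM in oocyte libraries (adjusted p = 0.352). Histone genes are short, often lack a poly(A) tail and have near-identical copies, so the counts of single genes are uncertain. LSM10, a protein of the U7 particle that cuts the ends of histone messages, measured 14, 19.4 and 15.8 RPKM in 2-cell libraries and 7.41, 8.27 and 3.57 RPKM in oocyte libraries. It was the 1 gene called on RPKM among 14 tested for histone supply and chaperones (1.28, adjusted p = 0.0249), a call lost with the median ratio and without oocyte C, 2-cell B or 2-cell C (adjusted p up to 0.159).

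Genes that control the tails and the decay of mRNA act on the maternal store. Of 73 tested on RPM, 16 were called higher and 0 lower, beside 9.1% of all genes, and 36 lay higher without overlap beside 38.3% of all genes. Their median difference was 0.69 beside 0.41 for all genes, and 0.11 with the median ratio, under which 2 were called higher and 2 lower. The count was 9 without oocyte A, 12 without oocyte B, 1 without oocyte C, and 8, 6 and 3 without 2-cell A, B and C. On RPKM, 2 of 34 were called beside 4.37% of all genes, TENT5C and PAIP2. PAIP2, which binds poly(A)-binding protein and holds translation back, measured 3.7, 3.16 and 2.34 RPKM in 2-cell libraries and 0.715, 0.78 and 0.392 RPKM in oocyte libraries, apart in every library (1.31, SE 0.30, adjusted p = 0.00754). CNOT6L, a catalytic subunit of the CCR4-NOT deadenylase, measured 76.4, 60.1 and 83.6 RPM in 2-cell libraries and 29.9, 48.2 and 18.2 RPM in oocyte libraries. These do not overlap, but the difference of 1.26 did not pass the test (adjusted p = 0.183). PABPN1L, a poly(A)-binding protein of oocytes, averaged 4.06 ± 0.935 RPM in 2-cell and 3.22 ± 1.41 RPM in oocyte libraries (SD, n = 3 each; adjusted p = 0.615).

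Of the growth factors, zona and egg coat genes, 1 of 11 was called higher on RPM, near the 9.1% of all genes. By limma, 0 of 7 were called on RPKM (3 at an unadjusted p below 0.05), where 4.37% of all genes were called higher. GDF9, a growth factor that the oocyte sends to its cumulus cells, measured 165, 218 and 267 RPKM in 2-cell libraries and 62.3, 55 and 72.4 RPKM in oocyte libraries. BMP15, its partner, measured 76.7, 94.3 and 117 RPKM in 2-cell libraries and 38.8, 33.6 and 57.8 RPKM in oocyte libraries. Both lay higher in every 2-cell library without passing the test (1.74, adjusted p = 0.0893 for GDF9, and 1.14, adjusted p = 0.26 for BMP15). The zona pellucida gene ZP2 averaged 30.1 ± 7.07 RPKM in 2-cell and 23.5 ± 5.22 RPKM in oocyte libraries, and ZP4 averaged 37.9 ± 16 RPKM in 2-cell and 21.9 ± 10.3 RPKM in oocyte libraries (SD, n = 3 each; adjusted p = 0.787 and 0.313). ASTL, the ovastacin protease that cortical granules release to harden the zona, was the 1 gene called among 11 tested on RPM for growth factors, zona and egg coat, beside 9.1% of all genes. It measured 31.7, 61.3 and 57.2 RPM in 2-cell libraries and 5.96, 4.11 and 3.16 RPM in oocyte libraries. This rise was among the largest on RPM (3.22, SE 0.53, adjusted p = 0.00163) and held without each library and under median-ratio and quantile scaling of RPM.

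In the list of maternal-effect genes, 3 of 22 were called higher on RPM beside 9.1% of all genes (1 without oocyte C, 2-cell A or 2-cell C). PADI6, a component of the subcortical complex that mouse embryos need to pass the 2-cell stage, measured 18.3, 14.2 and 31.8 RPM in 2-cell libraries and 5.27, 1.93 and 1.94 RPM in oocyte libraries. All 2-cell values lay higher (2.49, SE 0.46, adjusted p = 0.00312), and the call held without each library. NLRP9, of a family of oocyte NLR proteins, measured 5.06, 5.06 and 7.04 RPKM in 2-cell libraries and 1.18, 1.06 and 0.808 RPKM in oocyte libraries. It was called on RPKM (1.73, SE 0.29, adjusted p = 0.000835) and not on RPM (2.33, adjusted p = 0.0756). OOEP, another member of the subcortical complex, overlapped between the stages at 122, 82 and 174 RPKM in 2-cell libraries and 153, 124 and 155 RPKM in oocyte libraries (adjusted p = 0.935). KPNA7, the importin of oocytes and early embryos, averaged 40.7 ± 21.7 RPKM in 2-cell and 31.1 ± 3.77 RPKM in oocyte libraries (SD, n = 3 each; adjusted p = 0.898).

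Regulators of meiotic arrest and egg activation hold the egg until fertilisation. By limma, 0 of 16 were called on RPKM (4 at an unadjusted p below 0.05) and 3 of 29 on RPM, where 9.1% of all genes were called higher, and 1 without oocyte C or 2-cell C. MOS, the kinase that holds the egg in metaphase, measured 33.8, 85.5 and 27.1 RPKM in 2-cell libraries and 37.6, 21 and 33.2 RPKM in oocyte libraries, overlapping, with 2-cell B high (adjusted p = 0.703). FBXO43, which encodes the anaphase inhibitor EMI2, averaged 9.15 ± 0.979 RPKM in 2-cell and 9.3 ± 1.41 RPKM in oocyte libraries (SD, n = 3 each; adjusted p = 1). PPP2R5D, a regulatory subunit of phosphatase 2A, measured 5.95, 4.87 and 4.98 RPM in 2-cell libraries and 0.638, 0.785 and 0.662 RPM in oocyte libraries. It lay apart with a narrow spread in both stages (1.88, SE 0.33, adjusted p = 0.00277). PLK1, a mitotic kinase, averaged 35.3 ± 11 RPM in 2-cell and 9.72 ± 3.24 RPM in oocyte libraries (SD, n = 3 each; 1.77, adjusted p = 0.0106), a call lost with the median ratio and without oocyte C or 2-cell C (adjusted p up to 0.0786).

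Genes too low in RPKM to be tested there, mostly of long span, could be tested on RPM. TIMD4, a receptor for phosphatidylserine, on chromosome 7 from 42175186 to 42203366, measured 59, 70.9 and 80.7 RPM in 2-cell libraries and 7.55, 7.85 and 4.23 RPM in oocyte libraries. The stages lay far apart (3.27, SE 0.65, adjusted p = 0.00448). APP, the amyloid precursor protein, measured 15.8, 14.8 and 23.2 RPM in 2-cell libraries and 2.07, 2.84 and 1.02 RPM in oocyte libraries (2.69, adjusted p = 0.00385). TSPAN14, a tetraspanin, measured 15.2, 14.2 and 11.1 RPM in 2-cell libraries and 1.33, 1.93 and 0.611 RPM in oocyte libraries, the smallest adjusted p of this set (0.00073). The lysosomal membrane protein gene GPR137B averaged 29.9 ± 8.56 RPM in 2-cell and 3.17 ± 1.37 RPM in oocyte libraries (SD, n = 3 each), a call lost without oocyte C (adjusted p = 0.0527). TBC1D8, SCAMP2 and GMPR, which encode a Rab GTPase-activating protein, a secretory carrier membrane protein and GMP reductase, were higher by 2.75, 2.59 and 2.58 on the log2 scale (adjusted p = 0.0036, 0.00387 and 0.00182). TIMD4, APP, TSPAN14, TBC1D8, SCAMP2 and GMPR were called without each library and under median-ratio and quantile scaling of RPM. Their mean RPKM was at most 1.001 at the 2-cell stage, in TIMD4.

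Falls were fewer than rises without rescaling. The 17 genes called lower on RPKM had a median span of 442 bp, beside 3957 bp for those called higher and 7995 bp for all genes tested, and 11 of the 17 carry no symbol. RPL27, a protein of the large cytosolic ribosomal subunit, on chromosome 19 from 42699920 to 42702046, measured 33.1, 20.2 and 16.2 RPKM in 2-cell libraries and 82.4, 56.2 and 69.7 RPKM in oocyte libraries. The groups did not overlap (-1.59, SE 0.48, adjusted p = 0.0374), and the call held without 2-cell A and was lost without any other library (adjusted p up to 0.161). DTWD1, which modifies tRNA, on chromosome 10 from 42460051 to 42478936, measured 7.29, 4.62 and 3.43 RPKM in 2-cell libraries and 14.3, 11.6 and 16.8 RPKM in oocyte libraries. Its fall of -1.35 (SE 0.31, adjusted p = 0.00898) was lost without 2-cell C (0.0608) and was not called on RPM (adjusted p = 0.0524). CENPL, a centromere protein, measured 1.86, 1.95 and 2.08 RPKM in 2-cell libraries and 4.15, 3.22 and 9.93 RPKM in oocyte libraries. The oocyte libraries spread widely, with oocyte C highest (-1.07, adjusted p = 0.0119, and 0.0695 without oocyte C). FRRS1L, an auxiliary protein of glutamate receptors in brain, measured 3.13, 3.58 and 2.34 RPKM in 2-cell libraries and 9.18, 7.04 and 7.41 RPKM in oocyte libraries (-1.15, adjusted p = 0.0243, and up to 0.11 without oocyte A or C or 2-cell A or C). FRRS1L was not called on RPM (-1.55, adjusted p = 0.176).

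The snoRNA gene RF01296 was listed without a read in 2-cell libraries A and B and at 0.337 RPM in 2-cell C, against 3.67, 3.5 and 1.12 RPM in oocyte libraries A, B and C. It passed the filter on low values through the 3 oocyte libraries, where it is high, so its difference is given as a description. At these depths a count of 0 allows up to 0.124 RPM in 2-cell A and 0.128 RPM in 2-cell B, for counting error only. Of the genes with a symbol, at least 10 RPM on average, no overlap and no test on RPKM, NEXN, an actin-binding protein of muscle, had the largest called fall on RPM (12.5, 7.73 and 20.7 RPM in 2-cell libraries, 66.5, 70.1 and 84.5 RPM in oocyte libraries; -2.44, SE 0.55, adjusted p = 0.0103). Its groups lay far apart, and the call was lost without oocyte C or 2-cell B (adjusted p up to 0.0659). HACD4, an enzyme of very long fatty acids, measured 1.28, 5.26 and 1.98 RPM in 2-cell libraries and 13.1, 9.79 and 14.7 RPM in oocyte libraries (-1.94, adjusted p = 0.0273, and up to 0.12 without oocyte A or C or 2-cell A or C). PEX7, which carries enzymes into peroxisomes, measured 44.9, 42.9 and 25.4 RPM in 2-cell libraries and 118, 103 and 107 RPM in oocyte libraries (-1.55, adjusted p = 0.0185, and up to 0.11 without oocyte A, oocyte C or 2-cell C). MITD1, CEP290 and CCDC88A, which act in cytokinesis, the ciliary transition zone and actin and centrosome organisation, were lower by less (-1.78, -1.35 and -1.30; adjusted p = 0.0402, 0.0458 and 0.0422), and each of these 3 calls was lost without any one of the 6 libraries.

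Ribosomal proteins of the cytosol and of mitochondria were listed apart. Cytosolic ribosomal proteins had a median of -0.07 on RPKM beside 0.19 for all genes, and -0.26 on RPM beside 0.41, and it stayed below 0 with the median ratio (-0.45 and -0.90). Of 32 tested, only RPL27 was called lower and 0 higher on RPKM. On RPM 1 of 32 was called higher and 1 lower, beside 9.1% and 0.407% of all genes, and 0 either way without oocyte C. With the median ratio 4 were called lower on RPKM and 9 on RPM. Ribosomal protein genes have many processed copies, so their counts are uncertain. Mitochondrial ribosomal proteins had 3 of 46 called higher on RPKM, beside 4.37% of all genes, and 7 of 63 on RPM, beside 9.1%, with a median of 0.56 on RPM that became 0.02 with the median ratio. MRPL41, another of them, averaged 4.9 ± 1.76 RPKM in 2-cell and 1.5 ± 0.73 RPKM in oocyte libraries (SD, n = 3 each; adjusted p = 0.0465, lost without any one library). The 13 mitochondrially encoded genes had 0 calls by limma on RPKM and on RPM, and 0 at an unadjusted p below 0.05 on either. Nuclear respiratory chain subunits had 2 of 36 called higher on RPKM: CYC1, the cytochrome c1 of complex III, at 1.07, 1.62 and 2.22 RPKM in 2-cell libraries and 0.108, 0.311 and 0.193 RPKM in oocyte libraries, and NDUFA8, of complex I, at 1.49, 2.77 and 2.48 RPKM in 2-cell libraries and 0.639, 0.445 and 0.426 RPKM in oocyte libraries. Neither pair of groups overlapped, and both calls were lost on RPKM with the median ratio and without 2-cell C, and that of NDUFA8 also without oocyte B, oocyte C or 2-cell B (adjusted p up to 0.0862).

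The transcription apparatus must be in place before the embryo's genome is read. For RNA polymerase II, its general factors and Mediator, 2 of 45 were called higher on RPKM (POLR2G and MED28) beside 4.37% of all genes and 10 of 76 on RPM beside 9.1% of all genes, with 2 left without oocyte C. Their median on RPM was 0.40, beside 0.41 for all genes, and -0.01 with the median ratio. MED28, a Mediator subunit, measured 2.53, 4.05 and 2.66 RPKM in 2-cell libraries and 0.892, 0.922 and 0.436 RPKM in oocyte libraries (1.21, SE 0.29, adjusted p = 0.00962). Its libraries lay apart, and the call was lost with the median ratio and without oocyte C or 2-cell B (adjusted p up to 0.0625). For RNA polymerases I and III, 4 of 31 were called on RPM, POLR1A and POLR1E among them, and leaving out any library but oocyte A left 0. The splicing machinery had 9 of 83 higher and 1 lower on RPM (0 higher without oocyte C). SNRNP35, of the minor spliceosome, measured 9.72, 16.7 and 6.74 RPKM in 2-cell libraries and 1.45, 1.97 and 2.01 RPKM in oocyte libraries. It was higher in every 2-cell library (2.02, SE 0.45, adjusted p = 0.00729), although not with the median ratio. SRSF1, a splicing regulator, averaged 5.94 ± 5.08 RPKM in 2-cell and 1.04 ± 0.501 RPKM in oocyte libraries (SD, n = 3 each), with 2-cell B highest at 11.8 RPKM, and the call was lost without 2-cell B, oocyte B or oocyte C and with the median ratio. SNRPB2, of the U2 particle, was the fall: 71.8, 51.4 and 37.8 RPKM in 2-cell libraries and 120, 99.6 and 99.98 RPKM in oocyte libraries, apart in every library, called on RPM (-1.19, adjusted p = 0.0427, lost without any library but 2-cell A) and not on RPKM (-1.02, adjusted p = 0.106).

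Markers of embryonic genome activation had 1 of 17 called higher on RPKM, beside 4.37% of all genes, and 0 without oocyte C. KLF17, a zinc finger factor of the early embryo, had no read in any 2-cell or oocyte library. EIF1AX, a translation initiation factor, measured 3.79, 3.06 and 2.32 RPKM in 2-cell libraries and 4.48, 3.25 and 3 RPKM in oocyte libraries, overlapping (adjusted p = 0.855). Of 24 tested on RPM, 3 were called higher (ATF4, NFYC and the chaperone HSPA8) beside 9.1% of all genes, 0 of them without oocyte C. ATF4, the transcription factor of the integrated stress response, measured 38.4, 82.5 and 49.5 RPKM in 2-cell libraries and 22.3, 14 and 18.5 RPKM in oocyte libraries. These did not overlap (1.53, SE 0.41, adjusted p = 0.019), and the call was lost with the median ratio and in 4 of the 6 fits that leave out a library, all but those without an A library (adjusted p up to 0.1). CHAC1, a glutathione-degrading enzyme and target of ATF4, measured 3.68, 8.21 and 5.34 RPKM in 2-cell libraries and 0.972, 0.937 and 0.431 RPKM in oocyte libraries, highest in 2-cell B as ATF4 was. It was called under every scaling and without each library (1.88, SE 0.22, adjusted p = 6.86e-05). These 2 were the genes called among 14 tested on RPKM (4.37% of all genes) for stress of the endoplasmic reticulum, and 5 of 29 were called on RPM (1 without oocyte B or C or 2-cell C). The LIN28A entry, 630 bp annotated as a pseudogene, was the 1 member of the pluripotency list called, of 9 on RPKM and of 19 on RPM. The LIN28A protein blocks let-7 maturation, and whether these reads came from a functional copy was not tested. The entry measured 3.7, 2.62 and 3.09 RPKM in 2-cell libraries and 1.36, 0.788 and 0.376 RPKM in oocyte libraries (1.19, adjusted p = 0.00188), apart in every library and not called with the median ratio. Its RPM call held without oocyte A and was lost without any other library (adjusted p up to 0.15).

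Histone modifiers and remodelers set the state of chromatin. Of 117 histone modifiers and remodelers tested there, 18 were called higher and 0 lower, beside 9.1% of all genes, with 1 left without oocyte C or 2-cell C and 1 with the median ratio. On RPKM, limma called 0 of 23, and 8 had an unadjusted p below 0.05. WDR5, a core subunit of the H3K4 methyltransferases, measured 12.1, 29.7 and 16.2 RPM in 2-cell libraries and 4.2, 2.6 and 3.06 RPM in oocyte libraries. It lay apart in every library and was called under both other scalings of RPM (2.17, SE 0.43, adjusted p = 0.00424). NSD1, an H3K36 methyltransferase, averaged 26.8 ± 5.93 RPM in 2-cell and 6.42 ± 2.93 RPM in oocyte libraries (SD, n = 3 each; adjusted p = 0.0191), a call lost with the median ratio and without oocyte A, oocyte C, 2-cell A or 2-cell C (adjusted p up to 0.109). CHAF1B, of the chromatin assembly factor CAF-1, averaged 2.14 ± 1.18 RPM in 2-cell and 0.426 ± 0.152 RPM in oocyte libraries (SD, n = 3 each; adjusted p = 0.0367), a call that held without 2-cell B only. No gene of DNA methylation was called by limma, of 8 tested on RPKM and 17 on RPM, and 0 and 1 of these had an unadjusted p below 0.05. DNMT1, the maintenance methyltransferase, measured 22.3, 6.81 and 19.2 RPKM in 2-cell libraries and 9.24, 14.5 and 6.38 RPKM in oocyte libraries, overlapping through 2-cell B and oocyte B (adjusted p = 0.571). UHRF1, which brings DNMT1 to replicating DNA, averaged 1.66 ± 0.429 RPKM in 2-cell and 2.03 ± 0.628 RPKM in oocyte libraries (SD, n = 3 each; adjusted p = 0.696). TRIM28, a corepressor that guards imprints in mouse, measured 0.686, 0.279 and 1.54 RPKM in 2-cell libraries and 0.687, 0.455 and 0.478 RPKM in oocyte libraries (adjusted p = 0.651).

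Cleavage needs spindles, furrows and new DNA. Of 56 kinetochore, spindle and cytokinesis genes tested on RPKM, RACGAP1 was called higher and CENPL lower, beside 4.37% and 0.4% of all genes. RACGAP1, of the centralspindlin complex of the cleavage furrow, measured 4.5, 3.19 and 4.34 RPKM in 2-cell libraries and 1.07, 1.52 and 0.442 RPKM in oocyte libraries. The groups lay apart and the call held under every scaling and on RPKM without each library (1.34, SE 0.23, adjusted p = 0.000906). In DNA replication and repair, 2 of 35 were called on RPKM and 9 of 63 on RPM, beside 4.37% and 9.1% of all genes (1 without oocyte C or 2-cell A). CDC6, which loads the replicative helicase, measured 12.2, 6.8 and 13.6 RPKM in 2-cell libraries and 3.28, 3.25 and 3 RPKM in oocyte libraries, apart in every library (1.46, SE 0.32, adjusted p = 0.00583). MCM10, which helps to start the replication fork, averaged 5.05 ± 1.24 RPKM in 2-cell and 1.98 ± 0.696 RPKM in oocyte libraries (SD, n = 3 each; adjusted p = 0.0481, lost without any one library). Cyclins, CDKs and their inhibitors had 2 of 27 called on RPKM, CCNO and CDK5 (adjusted p = 0.0294 and 0.0368), both lost with the median ratio and without oocyte C.

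Nuclear pore and transport genes had 13 of 51 called higher on RPM beside 9.1% of all genes, a median of 0.70, and 0.30 with the median ratio. That count was 2 to 12 without one library, with 2 left without oocyte C, and 4 with the median ratio. NUP43, of the ring of the pore, measured 4.36, 4.76 and 5.2 RPKM in 2-cell libraries and 1.34, 1.42 and 0.958 RPKM in oocyte libraries, a narrow rise (1.37, SE 0.26, adjusted p = 0.00187) called on RPKM under every scaling and without each library. NUP153, of the nuclear basket, averaged 3.12 ± 1.03 RPKM in 2-cell and 1.04 ± 0.393 RPKM in oocyte libraries (SD, n = 3 each; adjusted p = 0.0236, up to 0.128 without oocyte A or C or 2-cell A or C). Its call was lost with the median ratio and with quantile normalization, and it was not called on RPM (adjusted p = 0.0929). Glucose metabolism had 6 of 18 called higher on RPM, the highest share among the gene lists other than cell type markers, with 0 left without oocyte C or 2-cell C and 0 with the median ratio. HK2, a hexokinase, measured 8.05, 14.8 and 7.22 RPM in 2-cell libraries and 1.38, 1.87 and 0.102 RPM in oocyte libraries, with oocyte C lowest (2.43, SE 0.68, adjusted p = 0.0279, lost without any library but oocyte B). ENO1, an enolase, measured 9.25, 7.73 and 10.7 RPM in 2-cell libraries and 3.62, 1.87 and 0.917 RPM in oocyte libraries (1.79, adjusted p = 0.0137, and up to 0.0978 without oocyte C or 2-cell C), again with oocyte C lowest. GPX4, a peroxidase of lipids and the 1 gene called of 23 antioxidant enzymes tested on RPM, averaged 4.45 ± 1.07 RPM in 2-cell and 0.805 ± 0.428 RPM in oocyte libraries (SD, n = 3 each; adjusted p = 0.0174, lost without oocyte C or any one 2-cell library).

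Protein quality control and synthesis filled the rest. CCT3, a subunit of the chaperonin that folds tubulin and actin, measured 5.45, 5.46 and 6.37 RPKM in 2-cell libraries and 1.28, 1.3 and 1.24 RPKM in oocyte libraries. Both stages were tight and far apart (1.57, SE 0.37, adjusted p = 0.0103), and CCT3 and the mitochondrial HSP70 gene HSPA9 were the 2 of 28 chaperones called on RPKM, beside 4.37% of all genes. HSPA9 measured 4.15, 2.81 and 5.38 RPKM in 2-cell libraries and 0.93, 1.1 and 0.505 RPKM in oocyte libraries (1.45, adjusted p = 0.0118, and up to 0.0672 without oocyte C or 2-cell C). The proteasome had 4 of 39 called on RPM (1 without oocyte C or 2-cell C), with PSMC1, an ATPase of its cap, at 13.1, 13.4 and 10.1 RPM in 2-cell libraries and 3.62, 1.57 and 1.48 RPM in oocyte libraries (2.09, SE 0.38, adjusted p = 0.00311). UBE2S, which extends ubiquitin chains for the anaphase-promoting complex, was the 1 ubiquitin gene called of 22 on RPKM (1.24, adjusted p = 0.0156), and was lost with the median ratio and without oocyte C, 2-cell B or 2-cell C (adjusted p up to 0.0906). Nucleolar and ribosome assembly genes had 3 of 53 called on RPKM and 12 of 86 on RPM, with 0 left on either scale without oocyte C. GTPBP4, a GTPase of large subunit assembly, measured 26.5, 21.6 and 45.8 RPKM in 2-cell libraries and 8.2, 12.9 and 7.52 RPKM in oocyte libraries (1.58, SE 0.43, adjusted p = 0.0208), apart in every library and lost with the median ratio and without oocyte A, oocyte C or 2-cell C (adjusted p up to 0.123). NMD3, the export adaptor of that subunit, averaged 6.7 ± 1.1 RPKM in 2-cell and 2.46 ± 0.713 RPKM in oocyte libraries (SD, n = 3 each; adjusted p = 0.00839, and 0.0547 without oocyte C). The NMD3 call was also lost with the median ratio and with quantile normalization, and NMD3 was not called on RPM (adjusted p = 0.125). Translation factors had 7 of 43 called on RPM, EIF3B and EIF2AK1 among them, with 0 left without oocyte C or 2-cell C, and their median of 0.24 became -0.34 with the median ratio. Genes for tRNA synthetases and modification had 6 of 62 called higher, genes of cholesterol and lipid 3 of 31 and apoptosis genes 2 of 21 on RPM, all near the 9.1% of all genes and 0 in each without oocyte C.

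**Figure D4:**
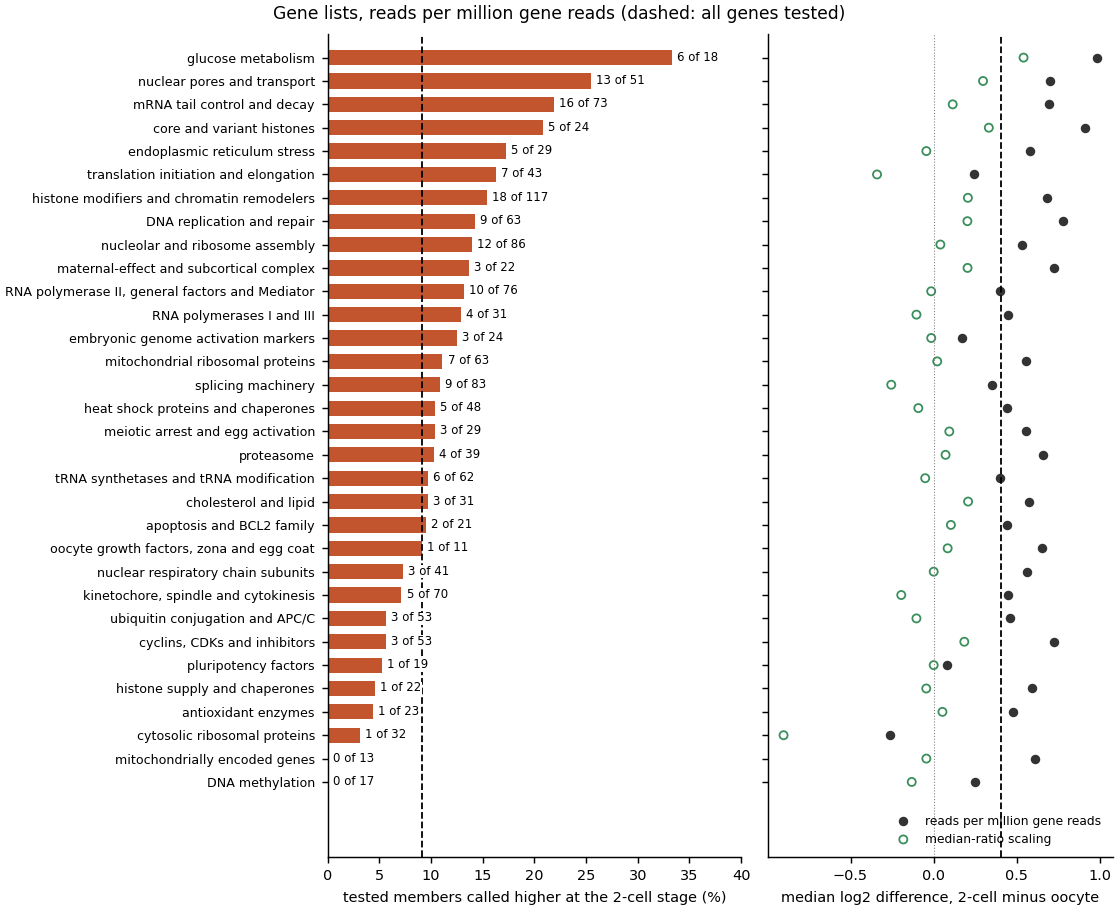
Gene lists on the RPM scale: the percent of tested members called higher at the 2-cell stage (left, bars, with counts) and the median log2 difference, 2-cell minus oocyte (right, filled circles; open green circles after median-ratio scaling). Dashed lines mark all genes tested, 9.1% and 0.41; glucose metabolism (6 of 18) has the longest bar, and cytosolic ribosomal proteins are the only list whose filled circle lies below 0.

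Across the other stages, genes called at the 2-cell stage did not share a single course. Of the 59 called higher under all 4 scalings, the mean RPM over the 7 stages was highest at the 2-cell stage for 19, at the 4-cell stage for 5, at the 8-cell stage for 13, at the 16-cell stage for 3, in morulae for 15 and in blastocysts for 4. Over all genes tested on RPM, 17.8% were highest at the 2-cell stage and 8.51% in oocytes. The 59 were chosen partly by their 2-cell values, so these counts are a description. TIMD4, ASTL, H2AFX and TENT5C were highest at the 2-cell stage. TIMD4 averaged 6.55 RPM in oocytes, 70.2 RPM at the 2-cell, 52.7 RPM at the 4-cell and 37.3 RPM at the 8-cell stage, 3.84 RPM in morulae and 0.388 RPM in blastocysts. POLR2G, MRPL17 and TUBA1B had a second and larger increase later. POLR2G averaged 34.8 ± 14.1 RPM at the 8-cell stage and 796 ± 590 RPM in morulae, where its libraries differed widely. MRPL17 averaged 36.2 ± 14.6 RPM and 486 ± 117 RPM (SD, n = 3 each). Of the 12 genes called lower under all 4 scalings, 6 were highest in oocytes, 4 in morulae and 2 in blastocysts. RPL27 averaged 413 ± 76.5 RPM in oocytes, 123 ± 43.8 RPM at the 2-cell stage, 1156 ± 655 RPM in morulae and 979 ± 334 RPM in blastocysts (SD, n = 3 each).

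**Figure D5:**
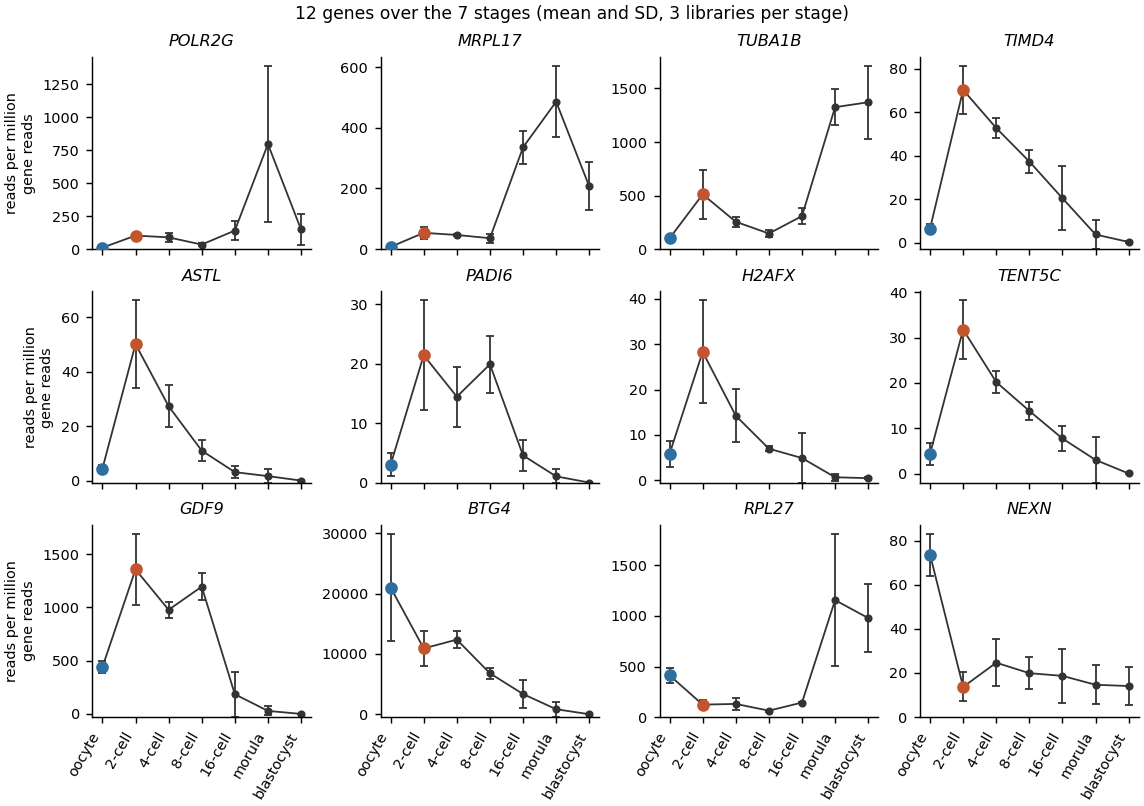
Mean RPM with SD (vertical axis, 3 libraries per stage) of 12 genes over the 7 stages in developmental order, with oocyte (blue) and 2-cell (orange) marked. TIMD4, ASTL, PADI6, H2AFX, TENT5C and GDF9 peak at the 2-cell stage, POLR2G, MRPL17, TUBA1B and RPL27 are highest in morulae or blastocysts, and BTG4 and NEXN are highest in oocytes.

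Some genes had reads at the 2-cell stage and almost none in oocytes, under a rule chosen after the data were seen: at most 3 reads in each oocyte library and at least 1 RPM in each 2-cell library. The rule found 15 genes, 13 with a symbol, and the reverse rule found 0. The 2 rules are not alike, because the 2-cell libraries are deeper. A ceiling of 3 reads is 0.153 to 0.181 RPM in oocyte libraries and 0.112 to 0.128 RPM in 2-cell libraries, so the reverse rule was stricter. The genes were chosen for this difference, so their values are a description, with no test. MRTFA, a coactivator of serum response factor, had 56, 50 and 73 reads in 2-cell libraries and 2, 1 and 0 reads in oocyte libraries. Scaled to depth this is a ratio of 44.1 (95% counting interval 14.9 to 216). FURIN, a protease that matures secreted proteins, had 26, 65 and 68 reads in 2-cell libraries and 1, 2 and 2 reads in oocyte libraries, a ratio of 23.5 (9.87 to 73.4). RNF166, a ubiquitin ligase, had 29, 55 and 37 reads in 2-cell libraries and 2, 1 and 0 reads in oocyte libraries, a ratio of 29.8 (9.97 to 147). These intervals cover counting error only. Their 2-cell levels were low, at 2.39 RPM for MRTFA, 2.13 RPM for FURIN and 1.64 RPM for RNF166.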

How the data were processed

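Bulk RNA was sequenced in 21 libraries, 3 for each of 7 stages, grouped by their titles. The submitters' processing notes name STAR 2.5.3a, FastQC and Partek. Coordinates are as deposited, and the genome build, annotation, library kit and strandedness were not stated in these sources. The authors deposited RPKM per gene. Values are whole multiples of 1 read over the gene span after subtracting 0.01 (at least 95.3% of values of up to 20 reads, within 0.05 reads), which gave reads, depth and RPM. At these depths a count of 0 allows 3 reads.

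limma 3.58.1 (R 4.3.3; trend, robust) was fitted on log2(value + 1) over all 21 libraries, for genes at 1 or more in at least 3 libraries, and checked on simulated data. Library measures had exact permutation tests. Named genes were, by fixed rules, the largest non-overlapping calls on RPKM (12 each way, mean of at least 5), under 4 scalings (8) and on RPM alone (8, mean of at least 10 RPM), 2 each way per gene list, and a tracked list; 1 gene that the rules name is not reported here. Members and lists were chosen with earlier results of these data known. Symbols came from the table; 5717 genes have none. Alternatives were pseudocounts, filters, scalings, the libraries in the fit, a replicate block and leaving out each library.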

Additional observations from a re-analysis of the deposited data

How the results depend on the processing

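The total called on RPKM was 203 (186 higher, 17 lower). It was 350 (334 higher, 16 lower) with a pseudocount of 0.1, 48 (39 higher, 9 lower) with a pseudocount of 5 and 114 (108 higher, 6 lower) with a filter of 5 RPKM, which tests fewer genes. Quantile normalization gave 112 higher and 83 lower, and the median ratio 62 higher and 100 lower. With only the 6 libraries 38 genes were lower, and without 16-cell C and morula C, an alternative added after seeing the data, 33 were lower. Leaving out 1 library gave 109 to 175 in all, 93 to 169 higher and 4 to 16 lower. The total on RPM was 1214 (1162 higher, 52 lower). It was 689 (665 higher, 24 lower) with a pseudocount of 0.1, 728 (673 higher) with a pseudocount of 5, 281 (143 higher, 138 lower) with quantile normalization, 437 (204 higher, 233 lower) with the median ratio, 2777 (2556 higher, 221 lower) with only the 6 libraries and 2099 (1958 higher, 141 lower) without 16-cell C and morula C. Leaving out 1 library gave 179 to 763 in all, 166 to 729 higher and 8 to 34 lower. Beyond the changes in genes or libraries tested, the cause was not tested. Deviations of 2-cell and oocyte libraries with the same letter correlated at 0.178 (A), -0.191 (B) and 0.165 (C), and those with different letters at -0.309 to 0.261. With 3 libraries a stage, these values cannot decide whether the letters pair the libraries. With the letter as a replicate block, 183 were higher and 15 lower on RPKM and 1077 higher and 48 lower on RPM. No gene named for a call reversed its direction on the scale of the call under these alternatives. Of the genes named without a call, 7 changed sign on RPM with the median ratio (DNMT1, KPNA7, MOS, PABPN1L, TRIM28, ZP2 and ZP4) and 2 on RPKM (KPNA7 and ZP2), and quantile normalization turned TRIM28 on both scales and PABPN1L on RPM. Leaving out 1 library turned FBXO43, OOEP, KPNA7 or TRIM28 on RPKM and KPNA7, MOS or TRIM28 on RPM. Leaving out 1 library moved the difference in the mitochondrial share of gene reads, 2-cell minus oocyte, between -0.283 and 1.07 percentage points (0.198 with all 6), below 0 without 2-cell B, oocyte A or oocyte B. It moved that of long intergenic RNAs between -0.0379 and 0.0351 (0.00794 with all 6), below 0 without 2-cell B or oocyte C.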
